A study of Glycine max with 4 samples.

Results

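The peaks described here are the accessible regions that lay on unplaced scaffolds of the soybean (Glycine max) genome in early-maturation embryos. They were chosen by name alone, as every peak in the authors' list whose sequence is called a scaffold, which gave 717 of 11436 peaks on 296 scaffolds. The other 10719 peaks lay on the 20 chromosomes and served for comparison. Embryos of the cultivar Williams 82 were dissected from seeds of 6 to 7 mm, and 50000 nuclei went into each transposase reaction. The series has 4 samples from 2 biological replicates, which are 2 single-end and 2 paired-end samples, and all of them share cultivar, tissue, stage and treatment. The authors' list is a single set of intervals with no heights and no replicate names, so no peak has a value per sample, and read depth is unknown.

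ATAC-seq marks DNA that the Tn5 transposase can reach, which in plants includes promoters and other regulatory stretches free of nucleosomes. An unplaced scaffold is a piece of assembled sequence that could not be assigned to a position on a chromosome. Such pieces are often short and often hold repeated sequence, and their borders are limits of the assembly and not of a chromosome. What sequence these scaffolds hold was not analysed here, nor was how reliably reads could be placed on them.

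Positions follow the list, with the first base as 1, and the sources used here do not name its build. Scaffold lengths were not used. The span of a scaffold is therefore the distance from its first base to the end of its last peak, a lower bound of its length, and scaffolds with no peak do not enter. Every density or covered share that rests on a span is an upper bound for the scaffold itself. Brackets after shares and medians give 95% exact intervals, which cover counting error only and treat peaks as independent, although peaks on 1 scaffold share their source. Chromosomes are parts of 1 list and not replicates, so their range is given as a description, and no difference between scaffolds and chromosomes was tested.

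Most scaffolds in the list carried few peaks. A single peak was found on 150 of the 296 scaffolds (50.7%), 2 peaks on 74, 3 or 4 on 42, 5 to 9 on 22 and 10 or more on 8. The 8 scaffolds with 10 or more peaks held 137 of the 717 peaks (19.1%), nearly as many as the 150 scaffolds with a single peak (20.9%). Together with the 22 scaffolds of 5 to 9 peaks they held 278 peaks, or 38.8%. On the chromosomes, by contrast, the smallest number of peaks was 365, on chromosome 16.

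The median span was 4.45 kb, and spans ran from 295 bp on scaffold 1770 to 3.55 Mb on scaffold 21. The 38 scaffolds that spanned under 1 kb all had a single peak. Another 120 spanned 1 to 5 kb, 68 spanned 5 to 20 kb, 38 spanned 20 to 100 kb and 32 spanned 100 kb or more. Those last 32 scaffolds made up 81.3% of the summed span of 15.1 Mb and held 239 peaks, which is 33.3% of the scaffold peaks. The other 264 scaffolds made up 18.7% of the span and held 478 peaks.

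**Figure D1:**
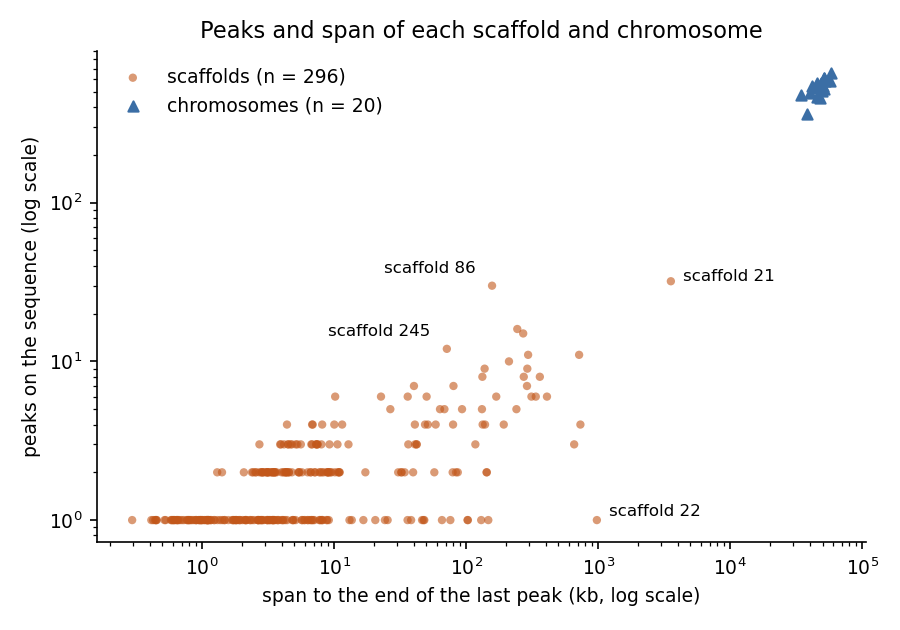
Number of peaks (log scale) against the span to the end of the last peak in kb (log scale) for each of 296 scaffolds (circles) and 20 chromosomes (triangles). Scaffold 86 reached 30 peaks within 157 kb, scaffold 21 had 32 over 3.55 Mb, and scaffold 22 had 1 peak at 977 kb.

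Long span did not go with a fixed number of peaks. Among the 32 scaffolds of at least 100 kb, the median was 21.5 peaks per Mb of span (14.0 to 31.0), with single scaffolds between 1.02 and 191. The chromosomes ran from 9.57 to 13.8 peaks per Mb by the same measure. Of the 32 scaffolds, 6 lay below this range, 2 within it and 24 above it. Because spans end at the last peak, scaffolds of only a few peaks are pushed upwards most.

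Some of the longest scaffolds were nearly empty. Scaffold 22 had its single peak of 377 bp at 976451 to 976827, with no peak before it. Scaffold 25 had 3 peaks in 657 kb and scaffold 24 had 4 in 733 kb, which is 4.56 and 5.46 peaks per Mb. Scaffold 26, of a similar span at 717 kb, had 11 peaks or 15.4 per Mb. Scaffold 21 came close to the chromosomes with 9.01 peaks per Mb and 0.50% of its span in peaks, against 0.492% on the lowest chromosome, chromosome 3.

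Numbers in the scaffold names ran from 21 to 2735. Of the 80 numbers from 21 to 100, 37 were in the list, and these 37 scaffolds held 249 peaks, 6.73 per scaffold, and their median span was 169 kb. The 53 scaffolds numbered above 2000 held 64 peaks, 1.21 per scaffold, with 1.09 kb as the median span, and 42 of them had a single peak. Lower numbers thus went with longer spans, but not strictly, since scaffold 1550 spanned 38.3 kb and scaffold 2082 spanned 32.4 kb. Whether every number between the lowest and the highest belongs to a scaffold was not known, so numbers missing from the list say nothing about scaffolds without peaks.

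Peaks that shared a scaffold lay close together. The 146 scaffolds with 2 or more peaks gave 421 gaps between neighbours, with a median of 3.76 kb (2.99 to 5.06) and quartiles of 1.41 and 25.3 kb. On chromosomes 10699 gaps had a median of 37.9 kb (36.3 to 39.2), and the median of single chromosomes ran from 29.0 kb on chromosome 10 to 47.6 kb on chromosome 8. Midpoints lay within 5 kb of each other in 224 of the 421 scaffold pairs, or 53.2% (48.3 to 58.1). The share on chromosomes was 16.2% (15.5 to 16.9), with a range of 11.99% on chromosome 4 to 22.3% on chromosome 10.

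A gap cannot be longer than the scaffold that holds it, and gaps were longer on longer scaffolds. On scaffolds of 1 to 5 kb the median gap was 1.13 kb, on those of 5 to 20 kb it was 2.26 kb, and on those of 20 to 100 kb it was 3.596 kb. At 100 kb or more the median of 207 gaps was 14.4 kb (9.69 to 22.3), and 31.9% of neighbours (25.6 to 38.7) lay within 5 kb. Both values were still outside the range of the chromosomes. The limit remains in this class, with a median span of 226 kb, since the upper quartile of chromosomal gaps was 99.2 kb. Scaffold 21, with the longest span, had a median gap of 47.6 kb and 9.68% of neighbours within 5 kb. Scaffold 86 alone contributed 29 of the 207 gaps. Without it the median was 20.6 kb (14.2 to 30.9) and the share within 5 kb was 23.6% (17.6 to 30.5). Both values lay outside the chromosomal range, but their intervals include the 29.0 kb and 22.3% of chromosome 10.

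**Figure D2:**
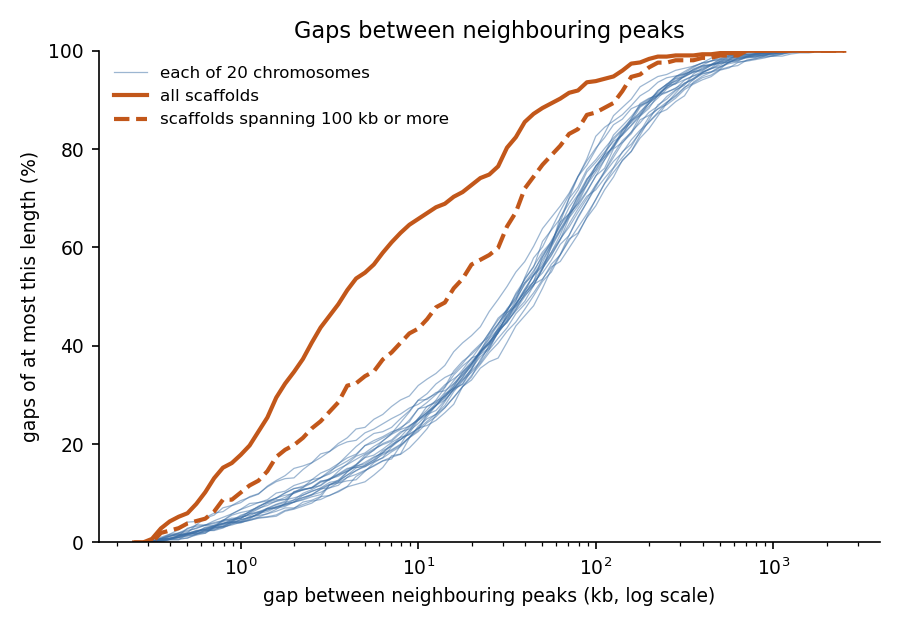
Cumulative share of gaps (%) against gap length in kb (log scale) for all scaffolds (solid), for scaffolds spanning 100 kb or more (dashed) and for each of 20 chromosomes (thin lines). The median gap was 3.76 kb on all scaffolds, 14.4 kb on those of at least 100 kb and 37.9 kb on chromosomes.

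Restricting the comparison to gaps of up to 20 kb lessens this limit but does not remove it. Scaffolds with 2 or more peaks had a median span of 8.87 kb, so many could not hold the longer of these gaps. There were 306 such gaps on scaffolds, with a median of 2184 bp (1764 to 2491), and 75.5% of them (70.3 to 80.2) were at most 5 kb long. Of the 306, 56 lay on scaffolds spanning 1 to 5 kb, where no gap can be longer than 5 kb. Chromosomes had 3881, with a median of 5480 bp (5139 to 5790) and 47.8% (46.2 to 49.4) at most 5 kb. The lowest chromosomal median was 3.16 kb, on chromosome 18. On scaffolds of at least 100 kb the median of these gaps was 3542 bp (2491 to 4915), which fell inside the chromosomal range of 3.16 to 7.39 kb. The share at most 5 kb long was 59.8% there (50.4 to 68.8), also inside the chromosomal range of 35.1% to 60.3%. Without scaffold 86 the median was 4915 bp (2836 to 6694) and the share was 50.6% (39.8 to 61.3).

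The closest neighbours on scaffolds were separated by 306 bp, once on scaffold 1370 (from 6026 to 6333) and once on scaffold 1754 (from 2079 to 2386). Scaffold 1260 followed with 311 bp, scaffold 86 with 319 bp and scaffold 38 with 321 bp. The smallest gap on chromosomes was 304 bp, so both kinds of sequence stopped at about the same distance. The longest gap, of 685 kb, lay on scaffold 24 between 8340 and 693254. The next longest, of 673, 486, 385 and 275 kb, were all on scaffold 21.

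Counting peaks in fixed windows gave a picture that depended on window size. Among windows of 10 kb that held at least 1 peak midpoint, 166 of 492 on scaffolds held 2 or more (33.7%, 29.6 to 38.1), against 1286 of 9155 on chromosomes (14.0%, 13.3 to 14.8). The mean was 1.46 peaks per occupied window on scaffolds (1.35 to 1.57) and 1.17 on chromosomes (1.15 to 1.19). In occupied windows of 100 kb the order turned, with 2.01 peaks on scaffolds (1.86 to 2.16) and 2.09 on chromosomes (2.05 to 2.13), and these intervals overlapped. The span was under 100 kb on 264 of the 296 scaffolds, and how much of each window a scaffold filled is not known here.

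Peaks took up a large part of short scaffolds and a small part of long ones. Over all scaffolds, 438 kb of the 15.1 Mb of span lay in peaks, a share of 2.91%, against 0.598% on the chromosomes, where single chromosomes ran from 0.492% to 0.778%. Taken scaffold by scaffold, the median covered share was 20.9% (16.3 to 26.0), and single scaffolds ran from 0.0386% on scaffold 22 to 100%. At least 50% of the span was covered on 71 scaffolds and at least 90% on 19. Scaffold 21 alone holds 3.55 Mb of the pooled span, and without it the pooled share was 3.65%.

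The covered share was lower in each longer class of span. The median was 80.1% (63.1 to 87.9) on the 38 scaffolds under 1 kb, 35.9% (32.6 to 40.8) at 1 to 5 kb, 13.1% (9.56 to 17.8) at 5 to 20 kb, 3.48% (2.28 to 4.46) at 20 to 100 kb and 1.13% (0.637 to 1.75) at 100 kb or more. A scaffold enters with at least 1 peak and its span ends there, so a high share on short spans follows in part from the measure itself. Of the 32 scaffolds of at least 100 kb, 20 had a share above that of any chromosome, 5 lay within the chromosomal range and 7 below it.

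**Figure D3:**
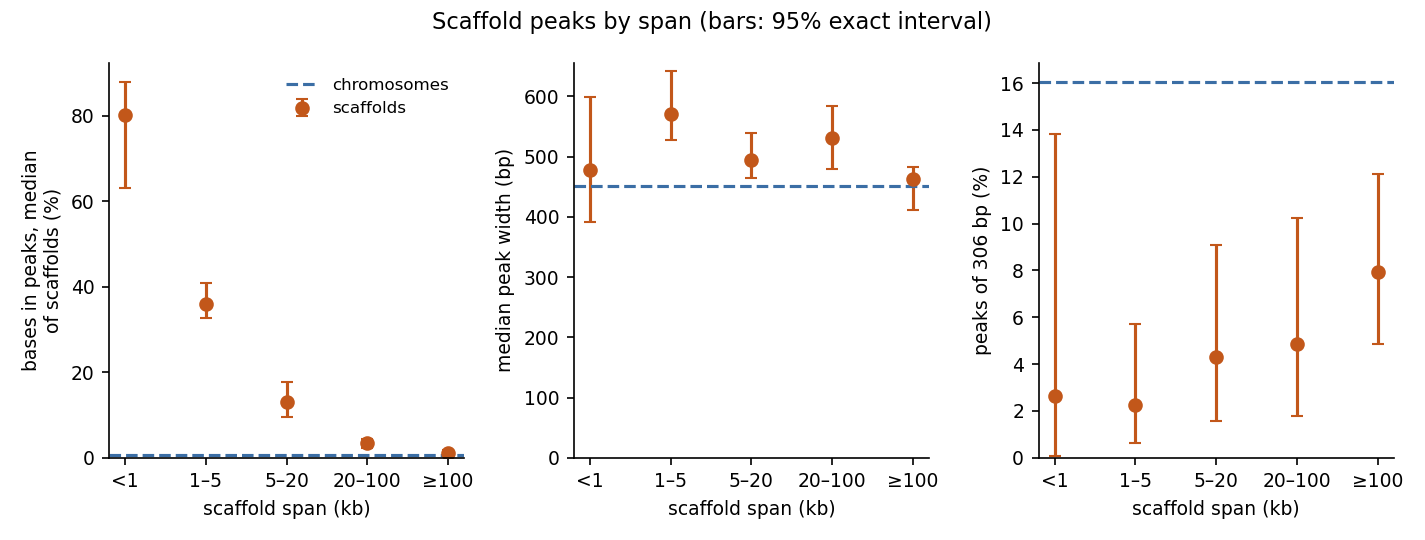
Median share of the span in peaks (%), median peak width (bp) and share of peaks of 306 bp (%) on scaffolds in 5 classes of span (kb), with 95% exact intervals. Dashed lines give the chromosomes (median over 20 for the covered share, pooled peaks for the others). The covered share fell from 80.1% to 1.13% across the classes, and the share at 306 bp stayed below the chromosomal 16.1% in each.

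Scaffold peaks were more often wide than chromosomal peaks. Their median width was 495 bp (479 to 522), with quartiles of 378 and 693 bp, against 452 bp (445 to 459) on chromosomes, where single chromosomes ran from 416.5 to 472 bp. Peaks of 1 kb or more numbered 91 of 717, or 12.7% (10.3 to 15.4). On chromosomes they numbered 547 of 10719, or 5.10% (4.69 to 5.54), and no single chromosome exceeded 7.68%. This excess was in the band from 1000 to under 2000 bp, with 11.2% (8.95 to 13.7) against 4.096% (3.73 to 4.49). At 2000 bp or more the shares were 1.53% (0.768 to 2.73, 11 peaks) and 1.01% (0.827 to 1.22, 108 peaks), with overlapping intervals.

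The commonest width in the whole list, 306 bp, was less frequent on scaffolds. It was found in 36 scaffold peaks, 5.02% (3.54 to 6.88), and in 16.1% of chromosomal peaks (15.4 to 16.8), with a lowest value of 12.6% on chromosome 1. Just below it, widths of 300 to 305 bp made up 3.21% of scaffold peaks (2.04 to 4.77) and 1.05% of chromosomal peaks (0.870 to 1.27). In the bands that remain the intervals overlapped, with 10.04% against 11.2% under 300 bp, 11.7% against 12.6% from 307 to under 400 bp, 36.7% against 34.5% from 400 to under 600 bp and 20.6% against 19.6% from 600 to under 1000 bp.

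**Figure D4:**
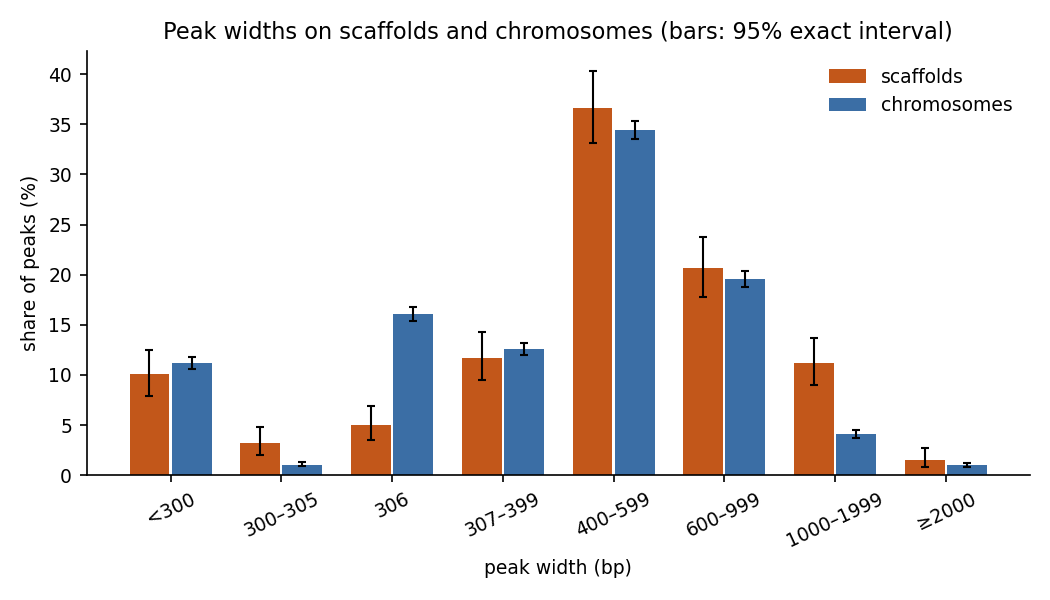
Share of peaks (%) in bands of peak width (bp) on scaffolds (717 peaks) and chromosomes (10719 peaks), with 95% exact intervals as error bars. The bars differ beyond their intervals at 300 to 305 bp, 306 bp and 1000 to under 2000 bp.

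Widths differed between classes of span, but the medians did not fall steadily with span. The median was 571 bp (527 to 643) on scaffolds of 1 to 5 kb. At 5 to 20 kb it was 494 bp (464 to 540), and at 20 to 100 kb 531.5 bp (480 to 584). On scaffolds of 100 kb or more it was 463 bp (411 to 483), which lay within the chromosomal range. Peaks of 1 kb or more made up 21.02% (15.3 to 27.8) at 1 to 5 kb. They made up 12.9% at 5 to 20 kb, 13.7% at 20 to 100 kb and 7.95% (4.85 to 12.1) at 100 kb or more. On scaffolds under 1 kb none could occur, and the median there was 478 bp. A span cannot be shorter than a peak it holds, so any scaffold with a peak of 1 kb or more falls at 1 to 5 kb or above. The share of such peaks at 1 to 5 kb thus follows in part from the classes. Peaks of 306 bp made up 2.27% (0.623 to 5.72) of the peaks on scaffolds of 1 to 5 kb and 7.95% (4.85 to 12.1) on those of 100 kb or more. On scaffold 21 itself, 5 of 32 peaks had this width, or 15.6%, close to the chromosomes, and without this scaffold the share on long scaffolds was 6.76% (3.75 to 11.1).

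Peaks with a near neighbour were compared with peaks of like spacing. The 150 single peaks have no neighbour and do not enter. A gap of under 5 kb to the nearest peak was found for 379 scaffold peaks and 3203 chromosomal peaks, with median widths of 513 bp (480 to 544) and 473 bp (467 to 480). In this class 13.7% of scaffold peaks (10.4 to 17.6) and 8.90% of chromosomal peaks (7.93 to 9.94) had 1 kb or more. The 306 bp width made up 3.43% (1.84 to 5.79) and 15.1% (13.9 to 16.4). With a nearest neighbour at 5 to 20 kb, 93 scaffold peaks had a median of 433 bp (389 to 490) and 2929 chromosomal peaks one of 439 bp (428 to 450). The 306 bp width made up 10.8% (5.28 to 18.9) and 16.1% (14.8 to 17.5) in this class. Peaks of 1 kb or more made up 7.53% (3.08 to 14.9) and 3.82% (3.16 to 4.58), and both pairs of intervals overlapped. At 20 kb or more, the medians were 476 bp (430 to 524, 95 peaks) and 438 bp (427 to 449, 4587 peaks). There the 306 bp width made up 7.37% (3.01 to 14.6) of scaffold peaks and 16.7% (15.6 to 17.8) of chromosomal peaks, and 9.47% (4.42 to 17.2) and 3.27% (2.77 to 3.83) had 1 kb or more.

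The widest scaffold peak ran from 235 to 3378 on scaffold 1326, with 3144 bp out of a span of 5358 bp. The second, of 2982 bp, was the single peak of scaffold 767, from 559 to 3540. Next came 2878 bp on scaffold 21 (1289846 to 1292723), 2761 bp on scaffold 66 (206227 to 208987) and 2414 bp on scaffold 245 (17548 to 19961). Scaffolds 135, 340, 34, 387 and 1337 followed with 2229, 2215, 2161, 2157 and 2065 bp. The 10 widest thus lay on 10 different scaffolds, of which 4 had 10 or more peaks. None came near the widest chromosomal peak of 15877 bp. The narrowest scaffold peak had 6 bp, on scaffold 33 from 199264 to 199269.

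First peaks often lay at or near the first base of a scaffold. The median start of the first peak was at base 1064 (747 to 1638), with quartiles of 181.75 and 4370. On the 20 chromosomes the median was base 65028.5 (26858 to 108433). A first peak cannot start beyond the span of its scaffold, and the median span was 4.45 kb. The contrast thus follows in part from span. On scaffolds of at least 100 kb the median start was base 23659. A first peak began within the first 50 bp on 36 scaffolds, or 12.2% (8.67 to 16.4), and within the first 500 bp on 114, or 38.5% (32.9 to 44.3). Of these 114 scaffolds, 35 were among the 38 that spanned under 1 kb. Among chromosomes, chromosome 1 alone had a peak that early, which began at its first base. On scaffolds of at least 100 kb, 4 of 32 first peaks began within 500 bp, which is 12.5% (3.51 to 29.0), and this interval includes the chromosomal 5% (1 of 20).

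Exactly at the first base, a peak began on 11 scaffolds, none of which spanned over 10 kb. On 6 of them that peak was the only one, so that it covered the whole span: 446 bp on scaffold 283, 1944 bp on scaffold 1740, 448 bp on scaffold 1899, 943 bp on scaffold 2012, 1308 bp on scaffold 2174 and 439 bp on scaffold 2735. Those 6 scaffolds are the ones with a covered share of 100%. The other 5 had further peaks. Scaffold 1322 had 4 peaks in 4391 bp and began with one of 435 bp, and scaffold 317 had 3 in 9216 bp and began with one of 363 bp. Scaffolds 1005, 2042 and 2075 had 2 each and began with peaks of 276, 402 and 703 bp. None of the 11 had the width of 306 bp (0 to 28.5%), and this interval includes both the 5.02% of all scaffold peaks and the chromosomal 16.1%. A peak that begins at the first base may be cut by the border of the scaffold, which was not tested.

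Scaffolds with a single peak were mostly short. Their median span was 2.24 kb, and 38 of the 150 spanned under 1 kb. The median covered share was 30.9% (19.6 to 41.0), against 25.2% (16.3 to 32.6) with 2 peaks, 19.3% (7.39 to 33.0) with 3 or 4, 2.68% (1.46 to 6.46) with 5 to 9 and 3.08% (0.50 to 14.6) with 10 or more. Median spans from the class of 2 peaks upwards were 5.07, 8.06, 132 and 257 kb. The single peaks of scaffolds 22, 60, 63, 68 and 77 lay more than 100 kb from the first base.

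Single peaks had a higher median width than peaks on full scaffolds, by a margin whose size against the counting error depended on the scaffolds used. The 150 single peaks had a median of 547 bp (479 to 584), and the 137 peaks on scaffolds with 10 or more had one of 465 bp (407 to 498). The intervals overlap, and the difference of 82 bp could lie between -19 and 177 bp when their bounds are set against each other. Without scaffolds spanning under 1 kb, an alternative chosen after seeing the data, 112 single peaks had a median of 554.5 bp (520 to 623), and the difference was 89.5 bp, between 22 and 216 bp. The span of these scaffolds ends with their only peak, so this filter could remove only single peaks under 1 kb wide. The filter thus acts on width itself and cannot show whether the difference exceeds the counting error. Peaks of 1 kb or more made up 15.3% (9.98 to 22.1) and 10.9% (6.26 to 17.4). The 306 bp width made up 4% (1.48 to 8.50) of single peaks and 7.30% (3.56 to 13.0) of the others. It was rarest on the 42 scaffolds of 3 or 4 peaks, with 1 of 141, or 0.709% (0.0180 to 3.89).

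Neighbours were closer on scaffolds with 2 to 4 peaks than on those with more. Within 5 kb lay 68.9% of neighbours (57.1 to 79.2) on scaffolds with 2 peaks, 71.7% (61.8 to 80.3) with 3 or 4, 42.0% (33.0 to 51.4) with 5 to 9 and 40.3% (31.8 to 49.3) with 10 or more. Median gaps were 2.28, 2.14, 7.69 and 7.56 kb. Median spans of these classes were 5.07, 8.06, 132 and 257 kb, so scaffolds with few peaks could seldom hold distant neighbours. Peak number and span cannot be told apart here. Among scaffolds with 5 or more peaks, the most peaks per span lay on scaffold 824, where 6 peaks of 288 to 657 bp covered 27.9% of 10.2 kb.

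Among the scaffolds with 10 or more peaks, scaffold 86 was the most crowded. Its first peak, of 385 bp, began at base 12, and the next 49.8 kb had none. The other 29 peaks lay between 50159 and 156989, and 24 of its 29 neighbouring pairs were within 5 kb. A dense run of 8 peaks (no gap over 10 kb), from 50159 to 63860, was 44.6% covered and had a median width of 597.5 bp. A second run of 19 peaks, from 80422 to 139359, was 18.0% covered, with a median of 386 bp. The widest peaks, of 1934, 1804 and 1097 bp, were at the left of these runs, from 81438 to 83371, 52650 to 54453 and 50159 to 51255. The full scaffold had a median width of 468.5 bp and 11.3% of its span in peaks. Dense runs of this kind were not particular to scaffolds, with 3 among the 717 scaffold peaks and 12 among the 10719 chromosomal peaks. The most peaks in a window of 100 kb were 16 on scaffolds and 35 on chromosomes.

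Scaffold 245 was shorter and more fully covered. Its 12 peaks took up 14.6% of 71.4 kb, and the medians were 648.5 bp for width and 1.59 kb for gaps. A run of 8 peaks from 4622 to 29743 was 32.3% covered and held its 3 peaks of 1 kb or more, of 2414, 1715 and 1125 bp. After the first 11 peaks, which ended at 48690, came a gap of 21.9 kb and a last peak of 714 bp.

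**Figure D5:**
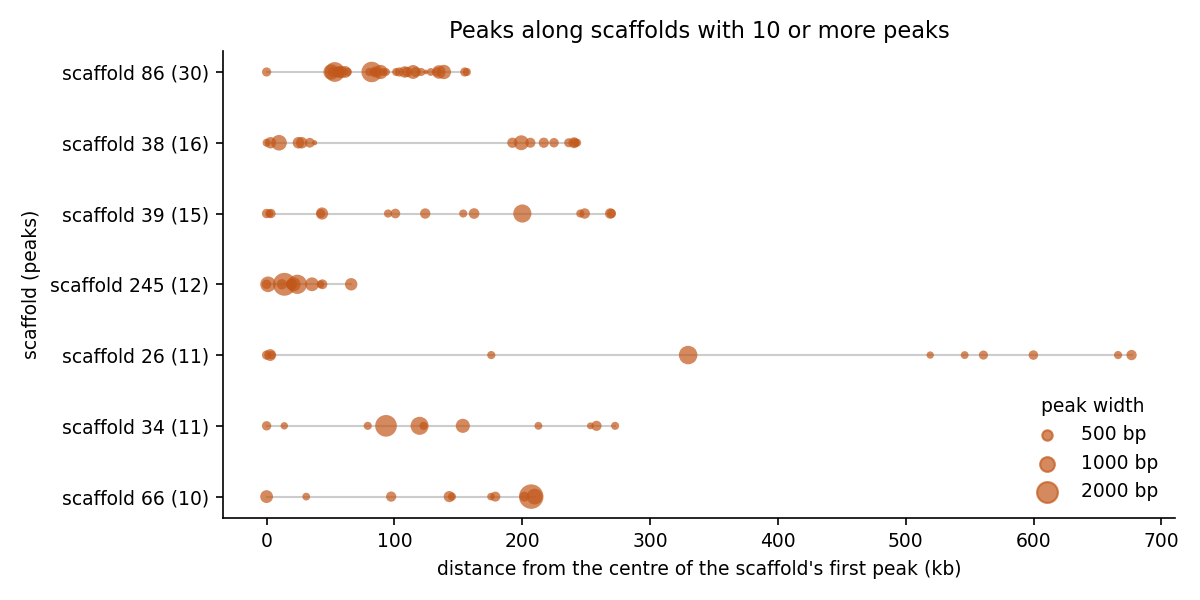
Peaks on 7 of the 8 scaffolds with 10 or more peaks, placed by distance in kb from the centre of the scaffold's first peak, with symbol area proportional to peak width; scaffold 21, at 3.55 Mb, is left out for scale. Peaks of scaffold 38 fall into sets of 7 and 9 on either side of a gap of 154 kb, and 29 of 30 peaks of scaffold 86 follow a gap of 49.8 kb.

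Scaffold 38 had its 16 peaks in separate sets at the start and the end of its span. There were 7 between 534 and 38331 and 9 between 192708 and 243800, with no peak in the 154 kb between them, and 6 of 15 neighbouring pairs were within 5 kb. Scaffold 39 had 15 peaks spread over 270 kb in small sets, with a longest gap of 51.1 kb, a median gap of 13.8 kb and 5 of 14 pairs within 5 kb. Its widest peak, of 1518 bp, stood by itself at 199586 to 201103. Covered shares were 3.39% on scaffold 38 and 2.76% on scaffold 39.

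Scaffold 21 was the sparsest of the 8 and carried most of its peaks toward the end of its span. Windows of 500 kb from its start held 2, 2, 5, 2, 1, 3 and 11 peaks, and the stretch from 3500001 to the end of the last peak at 3550435 held 6. Its median gap of 47.6 kb lay at the upper end of the chromosomal range, and 3 of 31 pairs were within 5 kb. The longest gap ran from 1804789 to 2477792. Its median width was 505.5 bp, and 1 peak had more than 1 kb.

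The remaining 3 were intermediate. Scaffold 66 had 10 peaks over 211 kb, with 3 of them from 202009 to 210886, among them its widest of 2761 and 1150 bp. Scaffold 34 had 11 peaks over 294 kb, a median width of 306 bp and peaks of 2161 and 1501 bp from 114019 to 116179 and from 140608 to 142108. On scaffold 26, 3 of 11 peaks lay between 39522 and 43691, and the others were spread up to 716584, with a longest gap of 188 kb. In all 3, 2 or 3 neighbouring pairs were within 5 kb, of 9 pairs on scaffold 66 and 10 on each of the others.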

How the data were processed

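The authors deposited 1 peak list, whose columns hold a sequence name, a start counted from 0 and an end in base pairs, a coordinate unit (other) with no count, score or p-value. The submitters' processing notes list bedtools, HOMER, SAMtools and Bowtie2 2.3.4.1, with no role or order. Only paired-end data were used, per the series' design text. The name of the list calls it an intersection, but not of what or with what overlap. The genome build, peak-calling settings, transposase offset, mapping filter and rule for joining replicates are not stated in the sources used here, so edges, depth and replicate error of each peak are uncertain.

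Starts were converted to count from 1. Gaps run from the end of a peak to the start of the next, and distances within 5 kb join midpoints. Shares carry exact (Clopper-Pearson) intervals, medians exact intervals from order statistics and means per window exact Poisson intervals, all at 95%. Software was scipy 1.17.1, pandas 2.3.3 and numpy 2.4.6 under Python 3.11.15, and matplotlib 3.10.9 drew the plots. The functions were tested on a simulated list with known spacing and widths.

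Regions were named by rule: scaffolds with 10 or more peaks, the 10 widest peaks, peaks at a first base, dense clusters (8 or more peaks with gaps of at most 10 kb), the 5 closest and 5 most distant pairs, and the longest and shortest spans. Other scaffolds were chosen after their values were seen. Members, classes and alternatives were chosen with earlier results of these data known. The gene table at hand is on Glycine_max_v4.0, whose match to the list is not known, so no gene is given for any peak.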

Additional observations from a re-analysis of the deposited data

How the results depend on the processing

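No paired analysis was possible because replicates are not named in the list, which also kept any replicate from being left out. Of 55 alternatives for 9 results, 26 stayed within the 95% exact interval of the reported value or, for counts, within 1.5 times of it. The other 29 moved further, and 16 of the 55 were chosen after seeing the data. For the covered share this interval (2.90% to 2.92%) treats single bases as independent, so it is far too narrow and small shifts count as moves. Removal of scaffold 21 also entered there both as the scaffold with most peaks and as the one with the longest span. The share of neighbours within 5 kb (53.2%) was 24.2% within 2 kb, 65.1% within 10 kb, 41.9% with peaks within 1 kb merged, 58.9% without scaffolds of 10 or more peaks, 31.9% on scaffolds of at least 100 kb and 100% as a median over scaffolds; chromosomal values were 6.92%, 24.5% and 11.0% under the first 3. The median gap (3755 bp) was 6339 bp after merging, 2842 bp without scaffolds of 10 or more peaks, 14352 bp on scaffolds of at least 100 kb, 2183.5 bp for gaps up to 20 kb and 2686 bp as a median over scaffolds. The covered share (2.91%) was 3.65% without scaffold 21, which has both most peaks and the longest span, 2.68% on scaffolds with 2 or more peaks, 3.74% without those of 10 or more, 2.82% without scaffold 86, 1.05% on scaffolds of at least 100 kb and 20.9% as a median over scaffolds. The share at 306 bp was 8.23% with the 2 widths above it and 7.95% on scaffolds of at least 100 kb. The median width (495 bp) was 529 bp after merging, 463 bp on scaffolds of at least 100 kb, 547 bp on scaffolds with 1 peak and 531.5 bp as a median of scaffold medians. Peaks per occupied window (2.01 in 100 kb) were 1.46 in 10 kb and 1.81 in 50 kb. Chromosomes had 2.09 in 100 kb, 1.17 in 10 kb and 1.60 in 50 kb, so the order of all scaffolds and chromosomes turned in both smaller windows. Scaffolds spanning at least 100 kb were above the chromosomes in windows of 100 kb too, with 2.57. Single peaks exceeded those on scaffolds of 10 or more by 82 bp (-19 to 177), and by 89.5 bp (22 to 216) without scaffolds under 1 kb, a filter that removes only single peaks under 1 kb wide. Scaffolds with a peak at the first base (11) became 36 within 50 bp and 114 within 500 bp, and dense clusters (3) became 7 with 5 or more peaks. Chromosomes had 12 dense clusters, and 55 with 5 or more peaks. Scaffold lengths and depth were not known, so what they limit was not tested.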
